A study of Mus musculus with 13 samples.

Results

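The integrated stress response was followed here through the liver mRNA of 10 genes: Eif2ak3, Atf4, Atf5, Ddit3, Cebpb, Asns, Chac1, Sesn2, Trib3 and Ppp1r15a. Each gene was taken from the probe set that carried its symbol alone, and each had exactly 1 such probe set, so the choice of the brightest probe set never arose. They are 10 of the 22180 genes with a single-symbol probe set, and all 10 passed the filter on dim genes that left 13308 genes for testing. None of the 10 passed a limma adjusted p of 0.05 in any comparison of diet or drug, and at most 0.165% of all genes tested passed in a comparison. Cebpb alone had arrays that did not overlap between canagliflozin and the continued high-fat diet, as did 4.90% of all genes tested. Between canagliflozin and calorie restriction the arrays of Cebpb overlapped.

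The livers came from male C57Bl/6J mice, whose RNA was hybridised to 13 Affymetrix gene arrays, 1 colour each. Feeding with a diet of 60% fat began at 6 weeks of age and lasted 4 weeks in all groups, so every animal compared here was first made obese. During the next 4 weeks the HFD group (4 arrays) stayed on that diet and the CANA group (4 arrays) ate it with canagliflozin at 25 to 30 mg/kg, given as 30 mg/kg in the series' design text. The CR group (5 arrays) was restricted by 15 to 30% of calories to match the weight of the CANA mice, which lets the drug be set beside weight loss by diet. Canagliflozin blocks SGLT2, the glucose transporter of the kidney tubule, and no group was left on chow. The labels give 3 to 5 per group but do not say that each array is a separate mouse, so p-values weigh differences only against the spread from array to array, which may be technical.

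In the integrated stress response, kinases that sense unfolded protein in the endoplasmic reticulum (PERK), amino acid shortage (GCN2), viral RNA (PKR) or haem shortage (HRI) phosphorylate the initiation factor eIF2. Most translation then slows, while the mRNA of the transcription factor ATF4 is translated more through its upstream reading frames, and ATF4 switches on genes for amino acid supply, redox balance and cell death. ATF4 is therefore regulated largely as a protein, and arrays read its mRNA and the mRNA of its targets. In liver, the response is best known from amino acid deprivation, toxic or lipid stress in the endoplasmic reticulum, and mitochondrial stress.

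ATF4 binds a composite element with a C/EBP partner, whose core TGATGNAA (TTNCATCA on the other strand) was searched on both strands of the 300 bases from 250 before to 50 after each start site in RefSeq's mouse promoters (GRCm38.p6). The full cAMP response element TGACGTCA, which reads the same on both strands and cannot match the same bases in full, was searched likewise. The composite core was found in 3 of the 10 genes, Asns, Chac1 and Trib3, against 4.51% of 27025 genes, and the cAMP element in 1, Ppp1r15a, against 2.03%. The matches are printed because these are the targets and the feedback gene whose mRNA is followed below, with the matched bases in capitals and each strand read 5′ to 3′ in the gene's direction. Asns lies on the minus strand (chr6:7693210-7693258), and its match begins 23 bases before the start site. In Chac1, on the plus strand (chr2:119351023-119351082), the reversed core begins 193 bases before the start. In Trib3, on the minus strand (chr2:152344028-152344057), the reversed core begins 15 bases after the start. In Ppp1r15a, on the minus strand (chr7:45526269-45526306), the cAMP element begins 12 bases before the start. Cebpb, shown because its mRNA differed most between the groups, had neither set of letters in its window, and the 120 bases before its start are on the plus strand (chr2:167688795-167688914). The 10 genes were chosen as genes of this response, known ATF4 targets among them, so their share beside that of all genes is a description and was not tested. These matches describe the sequence and do not show that a factor binds there.
Asns: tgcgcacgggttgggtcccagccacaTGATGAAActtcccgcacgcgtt
Chac1: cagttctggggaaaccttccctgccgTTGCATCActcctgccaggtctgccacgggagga
Trib3: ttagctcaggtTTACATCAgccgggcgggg
Ppp1r15a: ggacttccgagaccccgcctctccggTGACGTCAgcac
Cebpb: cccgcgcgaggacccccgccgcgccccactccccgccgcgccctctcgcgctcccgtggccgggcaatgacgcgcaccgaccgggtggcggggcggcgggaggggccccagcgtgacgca

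The arrays read as liver. The 7 hepatocyte markers (Alb, Apoa1, Ttr, Hnf4a, Serpina1a, Cps1 and Tat) averaged between 12.2 and 12.4 on the log2 scale of the deposited values on every array. Among markers of other cells, 2 of 9 lymphocyte and neutrophil genes, 3 of 5 bile duct genes and 3 of 5 adipocyte genes lay above the filter. So did 9 of 10 Kupffer cell and macrophage genes, 8 of 8 sinusoidal endothelial genes and 8 of 8 stellate cell and fibroblast genes. Of all genes 13308 of 22180 passed, so passing alone says little about which cells were present. The sample descriptions carry 2 numbers in brackets, and the labels do not say what they stand for. The first, called the serial number here, ran from 1 to 14 without a 7, and the other was not used. That it gives an order of the arrays is an assumption. Of all genes tested 50 (0.376%) followed the serial number in limma. None of the 10 stress genes did, the steepest being Trib3 with a slope of -0.02 per number (adjusted p = 0.456). In bulk tissue, fewer cells of a type and less RNA per cell cannot be told apart.

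**Figure D1:**
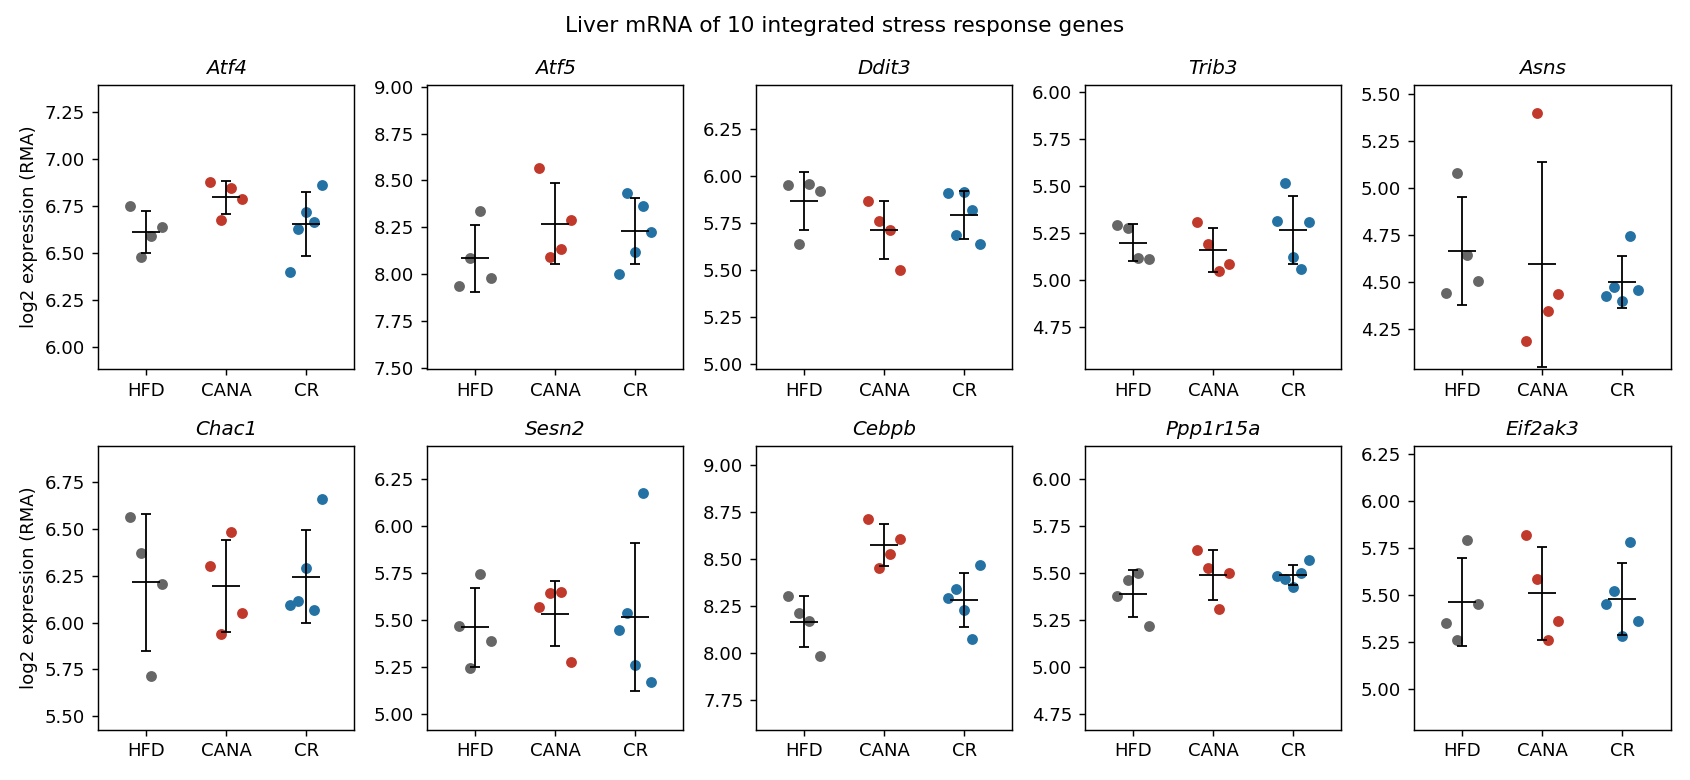
Log2 expression (deposited RMA values, vertical axes) of the 10 genes in each array, by group on the horizontal axis; points are arrays, horizontal lines group means and bars the SD (n = 4, 4 and 5). All panels span the same number of log2 units, and the CANA arrays of Cebpb, from 8.45 to 8.71, all lie above the HFD arrays, from 7.98 to 8.31, while the groups overlap in the other 9 panels.

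The comparison of CANA with HFD asked what the drug did to these genes against the continued diet. None of the 10 genes was called, and 22 of all genes tested (0.165%) were called. Cebpb had the largest difference at 1.33-fold, and 6 genes lay above zero and 4 below, with a median of 0.06 on the log2 scale against -0.01 for all genes tested. Of all genes tested 46.1% lay above zero. Only Cebpb had an unadjusted p under 0.05, which 8.82% of all genes had, and only its arrays did not overlap between the groups, as those of 4.90% of all genes did not. Leaving out Cebpb, the 95% intervals of the other 9 genes ran from -0.52 to 0.46, or 0.698 to 1.37-fold, and each of these 9 intervals held zero. The limma adjusted p of these 9 genes ran from 0.656 to 0.988.

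CEBPB is a bZIP transcription factor induced by stress, glucagon, glucocorticoid and cytokine signals, and it partners ATF4 at composite elements. Cebpb measured 8.31, 8.21, 8.17 and 7.98 in HFD, 8.71, 8.45, 8.53 and 8.61 in CANA, and 8.30, 8.34, 8.23, 8.08 and 8.47 in CR (log2, in replicate order). All 4 CANA arrays lay above all 4 HFD arrays, and CR lay across both, its highest array slightly above the lowest of CANA. The means ranked HFD at 8.17 ± 0.14, CR at 8.28 ± 0.15 and CANA at 8.58 ± 0.11 (SD, n = 4, 5 and 4). CANA exceeded HFD by 0.41 (SE 0.10, 95% interval 0.19 to 0.63, adjusted p = 0.166 by limma), and ranked 94 of 13308 genes by p. CANA exceeded CR by 0.29 (SE 0.10, interval 0.09 to 0.50, limma adjusted p = 0.402), and CR and HFD, neighbours in that order, differed by 0.11 (SE 0.10, adjusted p = 0.999). The CANA minus HFD difference was 0.32 within serial numbers 1 to 8 (7 arrays) and 0.49 within 9 to 14 (6 arrays). Replicates 1 and 2 of CANA and HFD fell in the first set and replicates 3 and 4 in the second, so a difference within a set rests on few arrays. The difference of Cebpb stayed between 0.35 and 0.46 when each array was left out in turn.

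The sensor gene Eif2ak3 encodes PERK, the eIF2 kinase of the endoplasmic reticulum membrane. Eif2ak3 measured 5.35, 5.26, 5.80 and 5.46 in HFD, 5.82, 5.59, 5.26 and 5.37 in CANA, and 5.45, 5.52, 5.28, 5.78 and 5.37 in CR. The highest array of each group lay near 5.8 and the lowest near 5.3, and the groups overlapped over nearly their whole range. CANA minus HFD was 0.04 (SE 0.14, limma adjusted p = 0.969), and it was -0.31 in serial numbers 9 to 14 and 0.40 in 1 to 8.

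ATF4 itself showed a small difference in mRNA that did not pass the test. Atf4 measured 6.75, 6.48, 6.59 and 6.64 in HFD, 6.88, 6.67, 6.84 and 6.79 in CANA, and 6.40, 6.63, 6.72, 6.66 and 6.86 in CR. Of the CANA arrays 3 lay above every HFD array, and the fourth, replicate 2, lay below HFD replicate 1. The difference was 0.18 (SE 0.10, interval -0.04 to 0.40, limma adjusted p = 0.656) and kept its sign in all 28 other settings, from 0.14 to 0.23. CANA minus CR was 0.14 (SE 0.10, adjusted p = 0.737).

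ATF5 is the ATF4 relative that also answers mitochondrial protein stress, and CHOP, the product of Ddit3, is the factor that links prolonged stress to cell death. Atf5 measured 7.94, 8.09, 8.34 and 7.98 in HFD, 8.57, 8.09, 8.14 and 8.29 in CANA, and 8.00, 8.43, 8.12, 8.37 and 8.23 in CR. Ddit3 measured 5.95, 5.64, 5.96 and 5.92 in HFD, 5.87, 5.76, 5.71 and 5.50 in CANA, and 5.91, 5.69, 5.92, 5.82 and 5.64 in CR. Neither gene separated the groups. For Ddit3 the HFD arrays other than replicate 2 lay above all of CANA, and without that replicate CANA minus HFD was -0.23, the farthest from zero of the fits leaving out 1 array. CANA minus HFD was 0.18 for Atf5 (SE 0.13, limma adjusted p = 0.752). It was -0.16 for Ddit3 (SE 0.11, adjusted p = 0.751), and -0.33 in serial numbers 9 to 14 and 0.02 in 1 to 8.

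Among the targets of ATF4, Asns and Chac1 act in amino acid and redox metabolism, and neither separated the groups. Asns encodes asparagine synthetase, the classical target in amino acid shortage, and measured 4.44, 5.08, 4.64 and 4.50 in HFD, 4.19, 5.40, 4.35 and 4.44 in CANA, and 4.42, 4.47, 4.40, 4.74 and 4.46 in CR. It was the dimmest of the 10 genes, with a mean of 4.58 at the 51.5th percentile of all genes. The filter lay at 3.95 and the array medians over all probe sets at 4.07 to 4.13, so a change in Asns is hard to read. The highest Asns values of HFD and CANA were each in replicate 2, and in CANA that array lay far above the other 3. Chac1, a glutathione-degrading enzyme that answers ATF4 and CHOP, measured 6.56, 6.37, 5.71 and 6.21 in HFD, 6.30, 5.94, 6.48 and 6.05 in CANA, and 6.09, 6.11, 6.29, 6.07 and 6.66 in CR. Its lowest array, HFD replicate 3, and its highest, CR replicate 5, lay outside the range of CANA. CANA minus HFD was -0.07 for Asns (SE 0.21, interval -0.52 to 0.37, limma adjusted p = 0.966), the widest interval among the 10 genes. It was -0.02 for Chac1 (SE 0.18, adjusted p = 0.988), and 0.31 in serial numbers 9 to 14 and -0.35 in 1 to 8.

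SESN2, a leucine sensor that restrains mTORC1, and TRIB3, a pseudokinase that binds AKT and ATF4, link the response to growth signals. Sesn2 measured 5.46, 5.24, 5.74 and 5.39 in HFD, 5.57, 5.64, 5.64 and 5.28 in CANA, and 5.44, 5.53, 5.26, 6.17 and 5.17 in CR. Trib3 measured 5.29, 5.27, 5.11 and 5.11 in HFD, 5.31, 5.19, 5.05 and 5.08 in CANA, and 5.31, 5.52, 5.12, 5.06 and 5.31 in CR. The CR group held both extremes of Sesn2 and the highest array of Trib3. CANA minus HFD was 0.07 for Sesn2 (SE 0.18) and -0.04 for Trib3 (SE 0.11), with limma adjusted p of 0.958 and 0.963.

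Ppp1r15a encodes GADD34, which brings a phosphatase to eIF2 and ends the response. Ppp1r15a measured 5.37, 5.46, 5.50 and 5.22 in HFD, 5.62, 5.52, 5.31 and 5.50 in CANA, and 5.48, 5.46, 5.43, 5.50 and 5.57 in CR. Its CR arrays spanned the narrowest range of any of the 10 genes in any group. CANA minus HFD was 0.10 (SE 0.09, interval -0.10 to 0.30, limma adjusted p = 0.834).

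**Figure D2:**
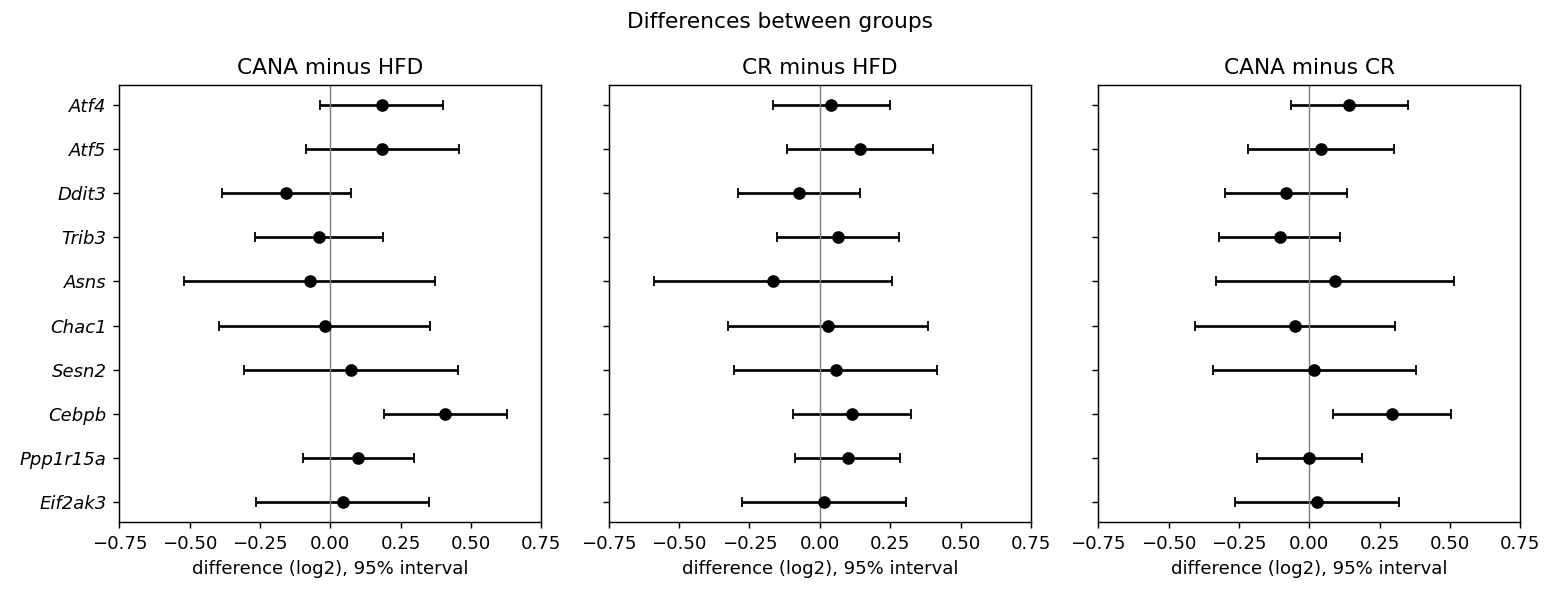
Differences between group means (log2, horizontal axis) of the 10 genes (vertical axis) in the 3 comparisons; points are limma estimates and bars their 95% intervals. Cebpb is the only gene whose interval lies clear of zero, in CANA minus HFD (0.19 to 0.63) and in CANA minus CR (0.09 to 0.50), before adjustment over the genes tested.

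The comparison of CR with HFD asked what calorie restriction to a matched weight did. Of the 10 genes 8 lay above zero and 2, Ddit3 and Asns, below, with a median of 0.05 against -0.01 for all genes. Above zero lay 46.4% of all genes tested. No stress gene and no other gene was called (0%) in limma. No stress gene had an unadjusted p under 0.05, which 498 of all genes (3.74%) had, and the arrays of none were apart, as those of 1.17% of all genes were. The largest differences were Asns at -0.17 (SE 0.20), Atf5 at 0.14 (SE 0.12) and Cebpb at 0.11 (SE 0.10), with a limma adjusted p of 0.999 for each of the 10. The 95% intervals ran from -0.59 to 0.42.

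The comparison of CANA with CR asked how the drug differed from restriction to the same weight. No stress gene was called, against 20 of all genes (0.150%). Of the 10 genes 7 lay above zero and 3, Ddit3, Trib3 and Chac1, below, with a median of 0.02 against -0.00 for all genes. Above zero lay 48.8% of all genes tested. Cebpb alone had an unadjusted p under 0.05, which 8.43% of all genes had, and no stress gene had arrays apart, as 2.93% of all genes had. The intervals of the other 9 genes ran from -0.41 to 0.52, with limma adjusted p of at least 0.737. Ppp1r15a differed by 0.00 (SE 0.09, interval -0.19 to 0.19) between CANA and CR. The 3 comparisons share arrays in pairs, so they are not independent of each other.

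Markers of other cells are given beside these values. The 9 tested Kupffer cell and macrophage markers all lay higher in CANA than in CR, by 0.14 to 0.77, and 8 of 9 lay higher in CANA than in HFD, with none called by limma. In CR minus HFD 7 of 9 lay below zero (median -0.15), and in CANA minus HFD the median was 0.10. The difference of 0.77 was that of Marco, whose SD over the HFD arrays was 1.29. Ccr2, of monocyte-derived cells, lay below the filter. The mean of the 10 listed markers ranged from 6.21 to 6.65 over the CANA arrays, 5.70 to 6.42 over CR and 5.77 to 6.67 over HFD. Macrophages also express Cebpb, and the part of such cells in its difference was not tested. Sinusoidal endothelial markers lay lower in CANA in 7 of 8 genes against HFD (median -0.11) and in 7 of 8 against CR (median -0.08). Against CR, Oit3 and Fcgr2b had unadjusted p of 0.0392 and 0.0469 in limma, and 8.43% of all genes had one under 0.05. The 1 marker higher in CANA was Lyve1, at 0.43 against HFD (SE 0.24, limma adjusted p = 0.661) and 0.23 against CR. Stellate cell and fibroblast markers lay higher in CANA in 5 of 8 genes against HFD (median 0.11) and 6 of 8 against CR (median 0.13). The highest, Rgs5, was at 0.61 (SE 0.22, limma adjusted p = 0.380) and 0.58 (SE 0.20, adjusted p = 0.446). Its CANA arrays measured 7.93, 8.79, 8.68 and 7.83, so replicates 1 and 4 lay below HFD replicate 1 at 8.02. Lrat, of the same list, lay lower in CANA than in HFD, at -0.25 (SE 0.21, limma adjusted p = 0.814). None of these markers was called, and their part in the values of the stress genes was not tested.

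The C/EBP family, to which Cebpb and Ddit3 belong, was set side by side because its members dimerise with each other. Cebpd, an inducible relative, measured 4.25, 4.18, 4.73 and 4.50 in HFD, 4.80, 5.15, 5.03 and 5.00 in CANA, and 4.64, 4.83, 4.35, 4.28 and 4.93 in CR. It was far dimmer than Cebpb, with an HFD mean of 4.41 against 8.17, and not far above the filter at 3.95. Cebpa, the factor of mature hepatocytes, measured 9.64, 9.67, 9.62 and 9.71 in HFD, 9.56, 9.55, 9.18 and 8.99 in CANA, and 9.52, 9.47, 9.79, 9.02 and 9.57 in CR. As with Cebpb, the CANA arrays of Cebpd all lay above the HFD arrays, whereas those of Cebpa all lay below. Of all genes tested, 4.90% had arrays apart between these groups, in either direction. CANA minus HFD was 0.58 for Cebpd (SE 0.15, limma adjusted p = 0.192) and -0.34 for Cebpa (SE 0.15, adjusted p = 0.536), and neither passed. Cebpg, the general partner of ATF4, was at -0.05 (SE 0.11) and Cebpe at -0.15 (SE 0.12).

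**Figure D3:**
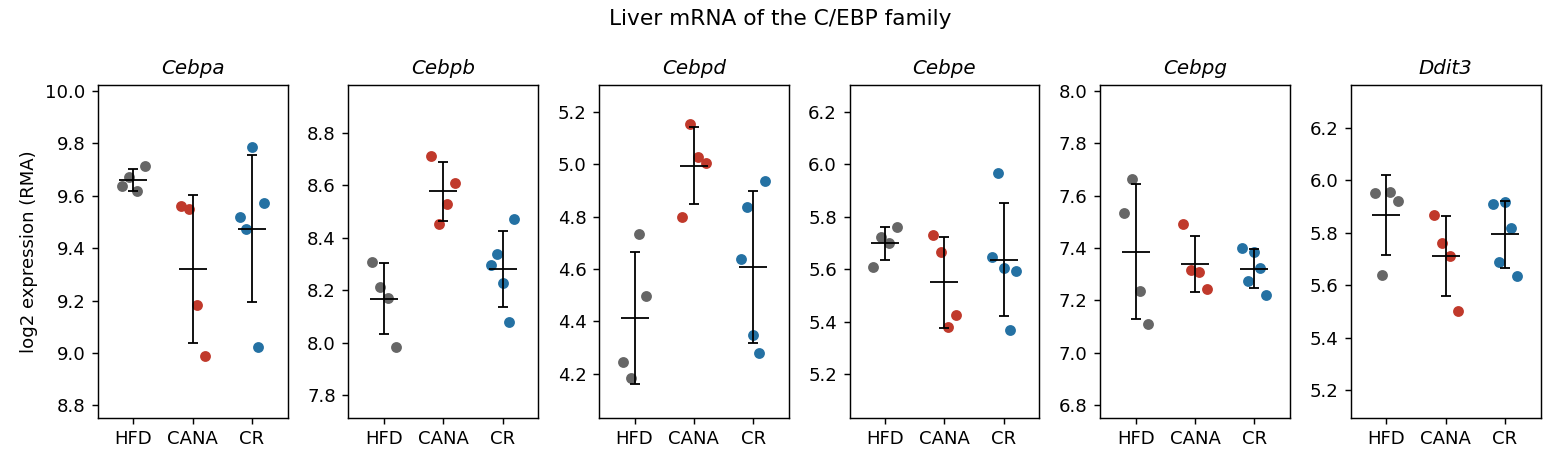
Log2 expression (deposited RMA values, vertical axes) of 6 genes of the C/EBP family by group; points are arrays, lines means and bars the SD (n = 4, 4 and 5). In CANA the arrays of Cebpb and Cebpd lie above all HFD arrays and those of Cebpa below them, and CR overlaps both groups in each panel. Arrays of CANA and HFD are apart, in either direction, for 4.90% of all genes tested.

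The wider pathway was read from 8 lists of genes. None of their genes was called in any comparison, so the counts below give directions only, each beside the median of all genes of -0.01 in CANA minus HFD and CR minus HFD and -0.00 in CANA minus CR. The share of all genes tested above zero was 46.1% in CANA minus HFD, 46.4% in CR minus HFD and 48.8% in CANA minus CR. Upstream, the other eIF2 kinases, the subunits of eIF2 and eIF2B and their regulators had 8 of 13 genes above zero in CANA minus HFD, with a median of 0.07. Dnajc3, an inhibitor of PERK and PKR, was at -0.19 (SE 0.11) and Impact, an inhibitor of GCN2, at 0.20 (SE 0.13), with limma adjusted p of 0.664 and 0.747.

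Among targets of ATF4 the lists differed in direction. Of 12 listed enzymes of amino acid and one-carbon synthesis only 7 were tested, the others being dim or unmatched. Of these 7 genes 5 lay above zero in CANA minus HFD (median 0.08). The highest was Got1, the cytosolic aspartate aminotransferase, at 11.02, 10.97, 11.02 and 11.08 in HFD and 11.70, 12.15, 12.50 and 12.04 in CANA. Its arrays were apart between these groups, and its difference of 1.07 (SE 0.21) narrowly missed the threshold (limma adjusted p = 0.051). Cth, the cystathionine lyase of cysteine synthesis, was at 0.44 (SE 0.12, adjusted p = 0.225), with CANA arrays apart from both HFD and CR. Of all genes tested, 4.90% had arrays apart between CANA and HFD and 2.93% between CANA and CR. Got1 and Cth were named for their small p, so arrays apart add no further evidence. Of 10 listed amino acid transporters 6 were tested, and 4 of these lay above zero. The highest was the neutral amino acid carrier Slc38a2 at 0.65 (SE 0.17, adjusted p = 0.192), while Slc1a4 was at -0.30 (SE 0.14, adjusted p = 0.545). Asns, the member of the 10 with the closest role, was at -0.07 as above.

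The tRNA synthetases had 9 of 11 genes below zero in CANA minus HFD (median -0.11), 6 of 11 in CR minus HFD (median -0.03) and 8 of 11 in CANA minus CR (median -0.12). Tars was at -0.31 (SE 0.15) and Cars at -0.24 (SE 0.11), with limma adjusted p of 0.565 and 0.567. The list of targets in transcription, growth and death control had 12 of 15 genes above zero (median 0.14). The smallest p in it were those of Fgf21, a liver hormone of fasting that also answers PPAR-alpha, and Map1lc3b, an autophagy gene. Fgf21 averaged 5.65 ± 0.31 over HFD, 5.85 ± 0.47 over CR and 6.87 ± 0.47 over CANA arrays (SD, n = 4, 5 and 4), and its CANA minus HFD difference of 1.22 (SE 0.25) had a limma adjusted p of 0.065. Map1lc3b was at 0.56 (SE 0.13, adjusted p = 0.115). Ddit4, an inhibitor of mTORC1, differed by more at a wider spread, at 0.89 in CANA minus HFD (SE 0.33, adjusted p = 0.404) and 0.82 in CR minus HFD (SE 0.31, adjusted p = 0.999). The wider list of bZIP factors had 10 of 17 genes above zero (median 0.05), and the relatives of Trib3, Sesn2 and Chac1 had 3 of 5 (median 0.05), with Chac2 at -0.23 (SE 0.10, adjusted p = 0.506).

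The IRE1 and ATF6 branches, the arms of the unfolded protein response that run beside PERK, had 15 of 16 genes below zero in CANA minus HFD (median -0.31), 14 of 16 in CR minus HFD (median -0.22) and 13 of 16 in CANA minus CR (median -0.16). Derl3, a degradation factor, measured 6.53, 6.90, 6.81 and 7.18 in HFD and 6.00, 5.61, 4.76 and 5.57 in CANA. Its arrays were apart, and the difference was -1.37 (SE 0.35, limma adjusted p = 0.166). The 1 gene above zero in CANA minus HFD was Dnajb9, a co-chaperone of BiP, at 7.46, 7.35, 7.48 and 7.87 in HFD and 8.36, 7.92, 8.04 and 8.76 in CANA. Its arrays were apart in the other direction, and it differed by 0.73 (SE 0.18, limma adjusted p = 0.156). Between these groups 4.90% of all genes tested had arrays apart, and Derl3 and Dnajb9 were named for their small p. Eif2ak3, of the third branch, lay at 0.04 and Ddit3, which all 3 branches can induce, at -0.16.

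**Figure D4:**
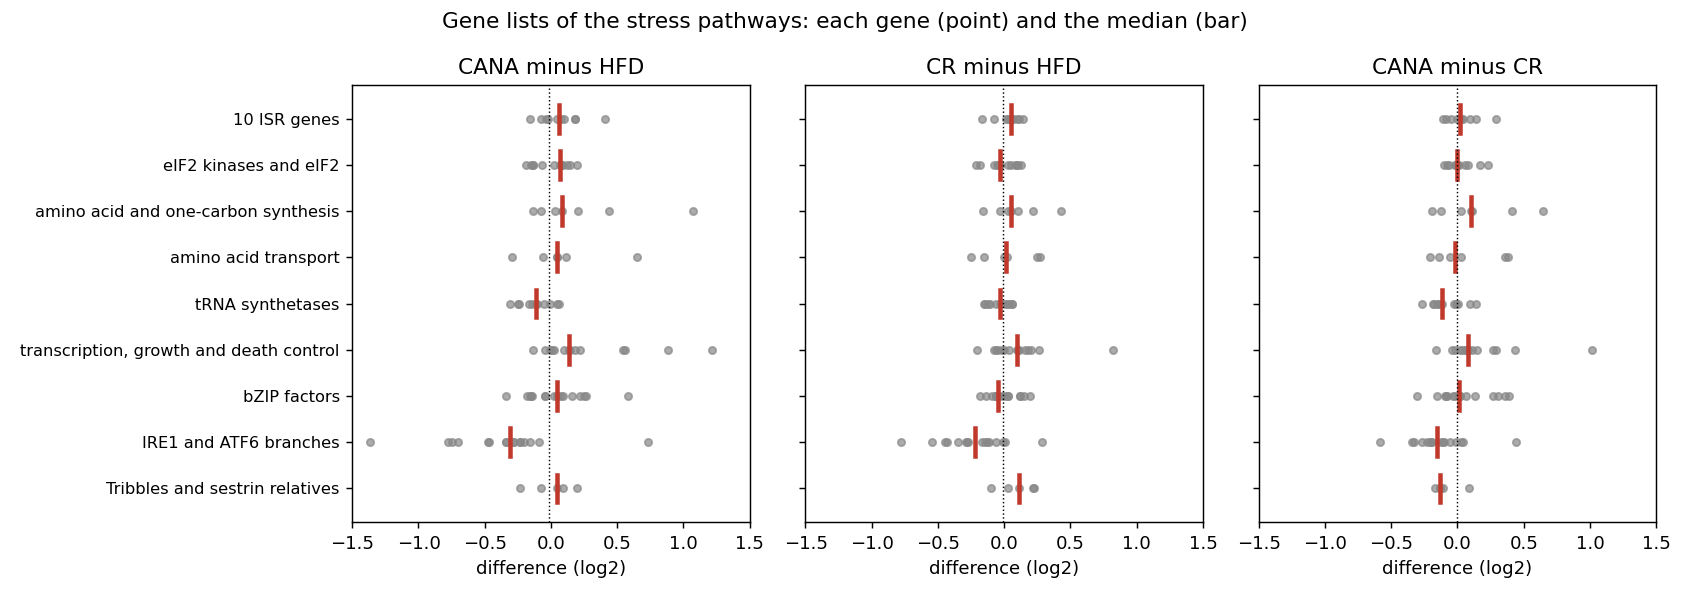
Differences between group means (log2, horizontal axis) of every tested gene of the 10 stress genes and of 8 pathway lists (rows) in the 3 comparisons; grey points are genes, red bars the list medians and the dotted line the median of all genes tested. The medians of the 10 stress genes lie close to the dotted line (0.06, 0.05 and 0.02), with Cebpb farther off at 0.41 in CANA minus HFD and 0.29 in CANA minus CR, and most genes of the IRE1 and ATF6 branches lie below it; no gene shown was called.

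Whether the 10 genes moved together from array to array was examined on deviations from the group means. Of 45 pairs 22 had a Pearson r above 0 and 23 below, with a median of -0.01 and a range from -0.606 to 0.710 (n = 13 arrays). By permutation within groups 4 pairs had an unadjusted p under 0.05, and none an adjusted one over the 45 pairs (lowest adjusted permutation p = 0.358 for r and 0.278 for Spearman's rho). The highest was Sesn2 with Eif2ak3, at r = 0.710 (permutation p = 0.00832, adjusted p = 0.358) and rho = 0.593 (permutation p = 0.0344, adjusted p = 0.387). It was 0.648 without the 2 arrays farthest from the median of Sesn2, 0.749 within serial numbers 1 to 8 (n = 7 arrays) and 0.745 within 9 to 14 (n = 6). With so few arrays, an r within a set is imprecise for every pair. Trib3 and Cebpb stood at r = 0.666 (permutation p = 0.0286, adjusted p = 0.358) and rho = 0.797 (permutation p = 0.00618, adjusted p = 0.278), with r of 0.588 within numbers 1 to 8 and 0.872 within 9 to 14. Atf4 and its target Asns ran in opposite directions, at r = -0.488 (permutation p = 0.0318, adjusted p = 0.358) and rho = -0.621 (permutation p = 0.015, adjusted p = 0.337). Their r was -0.831 without the 2 arrays farthest from the median of Atf4. It was -0.548 within serial numbers 1 to 8 and -0.05, near zero, within the 6 arrays of 9 to 14. The arrays left out were picked by Atf4 alone, so the highest Asns arrays, CANA replicate 2 (5.40) and HFD replicate 2 (5.08), stayed in. Both lie within numbers 1 to 8, so the r of 9 to 14 does not include them. Atf5 with Eif2ak3 was at r = 0.684 (permutation p = 0.0261, adjusted p = 0.358) and rho = 0.456 (permutation p = 0.169, adjusted p = 0.684). Its r was 0.380 without the 2 arrays farthest from the median of Atf5, 0.588 within numbers 1 to 8 and 0.865 within 9 to 14.

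**Figure D5:**
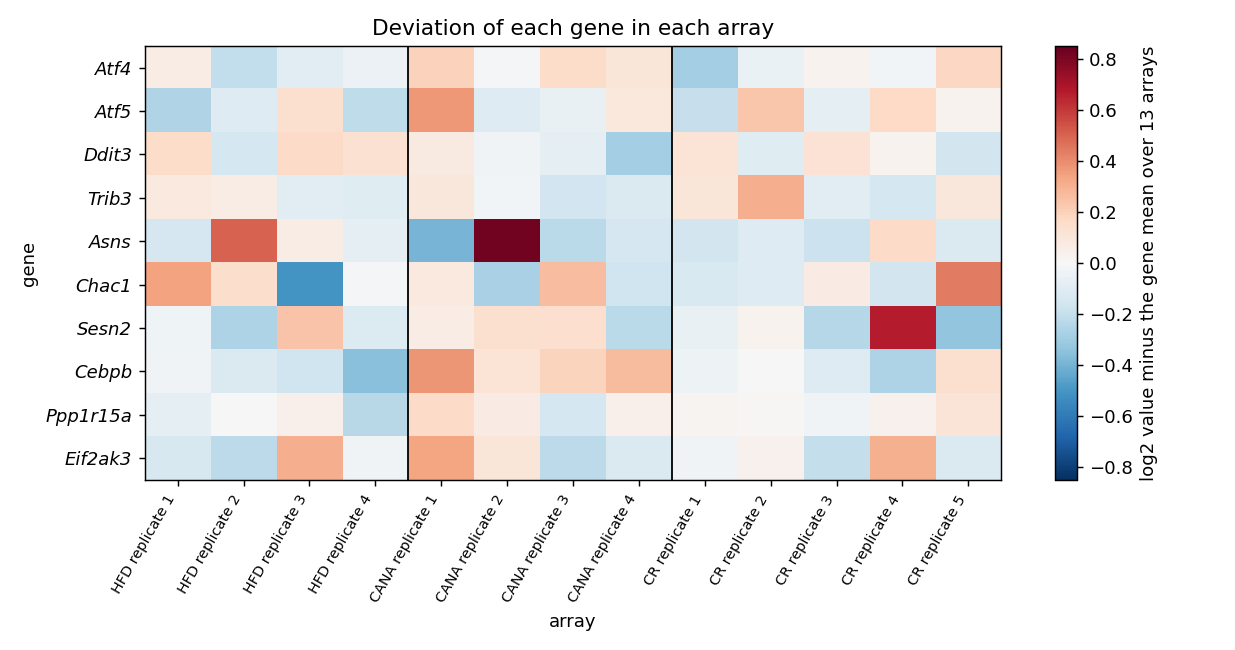
Deviation of each gene (rows) from its own mean over 13 arrays (log2, colour scale) in each array (columns, ordered by group with black lines between groups). Cebpb is above its mean in all 4 CANA arrays; Asns in CANA replicate 2 (0.82) and Sesn2 in CR replicate 4 (0.67) are the highest cells, and no array is high in all 10 genes.

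No array stood out in all of the genes at once. CANA replicate 1 had 9 of the 10 above their own means, the exception being Asns at -0.39, and the mean deviation over the 10 was 0.14. HFD replicate 4 had 1 of the 10, Ddit3, above its mean, with a mean deviation of -0.11. The other 11 arrays had between 3 and 6 genes above their means.

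By their levels over the 13 arrays, the gene most like Cebpb was Pawr, at a Pearson r of 0.881, followed by Nol8 at 0.849. Sesn2 was most like Sec14l5 at 0.943 and Atf4 most like Pcgf6 at 0.878. With 13 arrays and 13308 genes to choose from, such values are a description.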

How the data were processed

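Liver RNA, isolated with TRIzol, was labelled from 250 ng by the WT Plus protocol, per the labels. The authors deposited log2 values made with RMA in Affymetrix Expression Console, per the submitters' processing notes, with no version given. Scanner files and the array's genome build were not used here.

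Gene names came from the platform annotation, and 1 probe set stood for each gene (single symbol, highest mean). Genes with a mean under the 40th percentile (3.95) were left out. All 13 arrays entered a single limma fit (limma 3.58.1, R 4.3.3; residual df 10, prior df 5.71). Calls needed an adjusted p (Benjamini-Hochberg over 13308 genes, two-sided) under 0.05, and every adjusted p of a gene is limma's. Correlations used 100000 permutations within groups, two-sided. The pipeline was tested on simulated data. The stress genes, the pathway and marker lists (160 of 169 genes matched) and the settings were chosen with earlier results of these data known. Of each list the 2 genes with the smallest p in a comparison were candidates for naming. For each stress gene the 2 genes with the highest r were candidates too. The other settings were filters, normalization, centring, variance models, array weights, mean of probe sets, threshold, arrays compared, replicate block, serial number and leaving out each array. The number of arrays limits the precision.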

Additional observations from a re-analysis of the deposited data

Results flagged for a closer look

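Among the 30 sets of arrays formed by 10 genes in 3 groups, 2 had an array far from the rest by Dixon's ratio, where chance gives about 1 in 20. Ddit3 in HFD replicate 2 was at 5.64, and the other 3 HFD arrays lay between 5.92 and 5.96 (gap over range 0.892, critical value 0.829). Asns in CR replicate 4 was at 4.74, and the other 4 CR arrays lay between 4.40 and 4.47 (gap over range 0.783, critical value 0.71).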

How the results depend on the processing

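None of the 10 stress genes was called in any comparison under any of the 29 other settings. The CANA minus HFD difference of Cebpb ran from 0.32 to 0.49 over 28 of them (limma adjusted p from 0.129 to 0.899). In 840 member differences refitted, 779 kept their direction and 61 turned sign, all of them uncalled, and the cause was not tested. With array weights CANA minus CR became -0.016 for Sesn2, -0.010 for Ppp1r15a and -0.0051 for Eif2ak3, and with the serial number as a covariate -0.012 for Ppp1r15a. Within serial numbers 1 to 8 (7 arrays), CANA minus HFD was 0.020 for Ddit3 and 0.035 for Asns, and CR minus HFD was -0.032 for Atf4, 0.043 for Ddit3 and -0.30 for Chac1. Within numbers 9 to 14 (6 arrays), CANA minus HFD was 0.31 for Chac1, -0.10 for Sesn2 and -0.31 for Eif2ak3. In the same set CR minus HFD was 0.029 for Asns and -0.051 for Eif2ak3, and CANA minus CR was -0.083 for Atf5, -0.21 for Asns, -0.21 for Sesn2, -0.13 for Ppp1r15a and -0.26 for Eif2ak3. With the replicate number as a block, CR minus HFD was -0.012 for Atf4 and -0.073 for Chac1, and CANA minus CR was 0.054 for Chac1, -0.070 for Sesn2 and -0.0014 for Eif2ak3. The labels do not say that a number marks a shared animal, litter or day, and the arrays left it undecided. Arrays that share a replicate number also have consecutive serial numbers, so likeness by number cannot be told apart from serial order. Of 12 same-numbered pairs 7 correlated over 0.1 (r from -0.15 to 0.296), and 8 arrays were most like another of their number. That is a hint from the data and not from the design, and number was not tested apart from order. The only pairs below zero were CR replicate 3 (serial number 8) with CANA replicate 3 (9) at -0.138 and with HFD replicate 3 (10) at -0.15. They cross the limit between the serial-number sets, whereas CANA and HFD replicate 3, both within the set with the higher numbers, were at 0.175. The block equals leaving out CR replicate 5 for the differences given above with the block, since only CR has that number.

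Leaving out each array in turn turned the sign of 13 differences. CANA minus HFD then ran from -0.34 to 0.065 for Asns, -0.060 to 0.15 for Eif2ak3 and -0.19 to 0.10 for Chac1. CR minus HFD ran from -0.060 to 0.13 for Eif2ak3, -0.012 to 0.10 for Atf4, -0.11 to 0.15 for Sesn2 and -0.14 to 0.15 for Chac1. CANA minus CR ran from -0.057 to 0.10 for Atf5, -0.044 to 0.060 for Ppp1r15a, -0.076 to 0.11 for Eif2ak3, -0.070 to 0.18 for Sesn2, -0.18 to 0.23 for Asns and -0.15 to 0.054 for Chac1.

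Among all genes, the 22 called in CANA minus HFD became 12 without a filter, 14 with the 20th percentile filter, 56 at an adjusted p of 0.10, 40 with the serial number as a covariate, 46 with the serial-number set as a term, 2 and 0 within the sets, and 3 to 38 without 1 array. The 20 of CANA minus CR became 34 at 0.10, 5 and 0 within the sets and 7 to 23 without 1 array. CR minus HFD had 0 called, and 1 with the block, the serial number or its set. The correlation of Trib3 and Cebpb was 0.872 within numbers 9 to 14 (n = 6 arrays), and that of Chac1 and Eif2ak3 (-0.606) was -0.293 within 1 to 8 (n = 7).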
